A study of Mus musculus with 7 samples.

Results

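Regulators and marker genes of the endothelial to mesenchymal transition were followed in mouse liver endothelium with and without Maf. They are the transcription factor genes Snai1, Snai2, Twist1, Zeb1 and Zeb2, and the mesenchymal genes Vim, Cdh2, S100a4, Fn1 and Tagln. The 10 members were chosen by name and read from a table of 52636 genes. All 10 were listed, and 9 passed the filter on low counts that left 15512 genes for testing. Polyadenylated RNA was sequenced from flow-sorted liver endothelial cells in 4 libraries of genotype c-Maf KO and 3 of genotype control, with all libraries read as gene counts. The labels give no strain, age, sex, allele or Cre driver, so it is not known from them in which cells, or when, Maf was deleted. Whether libraries came from separate animals is not stated either, so each p-value reflects spread among libraries alone, which may be technical.

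In this transition endothelial cells lose junctions and gain contractile and migratory features of mesenchymal cells. SNAIL, TWIST and ZEB proteins are its best known transcription factors. SNAIL proteins (Snai1, Snai2) are zinc finger repressors that bind E-boxes, short DNA elements, in genes of cell junctions. ZEB proteins (Zeb1, Zeb2) bind the same kind of element through zinc finger clusters at both ends of the protein, and TWIST1 is a basic helix-loop-helix factor that binds E-boxes as a dimer. Vimentin (Vim) is the intermediate filament of mesenchymal cells, which endothelium also makes, while N-cadherin (Cdh2), the calcium-binding protein S100A4, fibronectin (Fn1) and transgelin (Tagln, an actin-binding protein of smooth muscle) serve as markers of the mesenchymal state.

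Promoters are shown for Snai1 and Twist1, because these E-box-binding factors moved in opposite directions. Both sequences are the 250 bases before the start site in RefSeq (build GRCm38.p6), plus strand, and capitals mark the E-box CACCTG, searched on both strands. The Snai1 window is chr2:167537945-167538194 and the Twist1 window is chr12:33957421-33957670.
Snai1: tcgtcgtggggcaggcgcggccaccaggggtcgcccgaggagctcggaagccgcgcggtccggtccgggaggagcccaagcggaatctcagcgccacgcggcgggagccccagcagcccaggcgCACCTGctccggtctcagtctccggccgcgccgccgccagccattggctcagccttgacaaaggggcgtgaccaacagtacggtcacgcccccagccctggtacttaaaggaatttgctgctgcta
Twist1: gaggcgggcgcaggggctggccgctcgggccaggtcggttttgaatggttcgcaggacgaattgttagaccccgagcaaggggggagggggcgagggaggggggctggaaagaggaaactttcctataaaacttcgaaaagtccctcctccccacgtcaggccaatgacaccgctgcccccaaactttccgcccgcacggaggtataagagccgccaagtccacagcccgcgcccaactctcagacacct
The Snai1 window held a single E-box that began 126 bases before the start site, and the Twist1 window held none. Among all 32851 promoter windows of that length 17.2% held CACCTG. The core letters of the MAF recognition element, TGCTGA, were in neither window and in 16.1% of all windows. The AP-1 site TGANTCA, which can overlap the MAF core, was in neither window and in 6.75% of all, and the CArG box, the element of serum response factor, was in neither window and in 1.47% of all. Such matches describe letters only and say nothing of binding.

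Relative to the mean of the controls, Maf RNA stood at 1.47, 8.08, 6.33 and 1.92% in KO 1 to 4, and its log2 fold change was -4.49 (SE 0.576, edgeR adjusted p = 0.000347). Library totals ran from 24772716 to 32960007 counts, and a limit of 3 counts corresponded to 0.0873 to 0.132 CPM, the count scaled by library size. KO 3 and control 3 came from sequencing lane 4, all others from lane 5. The endothelial label held: Pecam1 and Cdh5, of endothelial junctions, averaged 885.5 ± 218.1 and 1503 ± 301.2 CPM in the KO and 1374 ± 89.9 and 1953 ± 92.9 CPM in controls (SD, n = 4 and 3). Of 12 endothelial markers 8 fell and 1 rose, where 22.2% of all genes fell and 23.0% rose. Their summed level was 11280 to 15540 CPM in KO libraries and 29620 to 33670 CPM in controls. Stab1, Stab2 and Fcgr2b, which averaged 7270, 5958 and 4494 CPM in controls, fell 3.2-, 9.2- and 5.2-fold. Cdh5, Tie1 and Emcn did not pass the edgeR test (1.30-, 1.17- and 1.07-fold lower), and Egfl7 rose 1.49-fold. Because the samples are bulk RNA, fewer cells of a type and less RNA per cell cannot be told apart.

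The factor families went different ways in the KO. Both SNAIL genes and Vim rose, Snai1 only just past the threshold, Twist1 and both ZEB genes fell, and Cdh2, Fn1 and Tagln did not pass the test. S100a4 was all but absent. These calls are from edgeR's quasi-likelihood test at a Benjamini-Hochberg adjusted p under 0.05 over all 15512 genes, with CPM on the TMM scale (trimmed mean of M-values). So 3 of 9 tested members rose and 3 fell, where 23.0% of all genes rose and 22.2% fell, or 45.2% in either direction. The median log2 fold change was -0.0088 over the 9 members and 0.0433 over all genes. With the genotypes so far apart, the share of members called is not in itself a result about them, and the values of each gene follow.

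**Figure D1:**
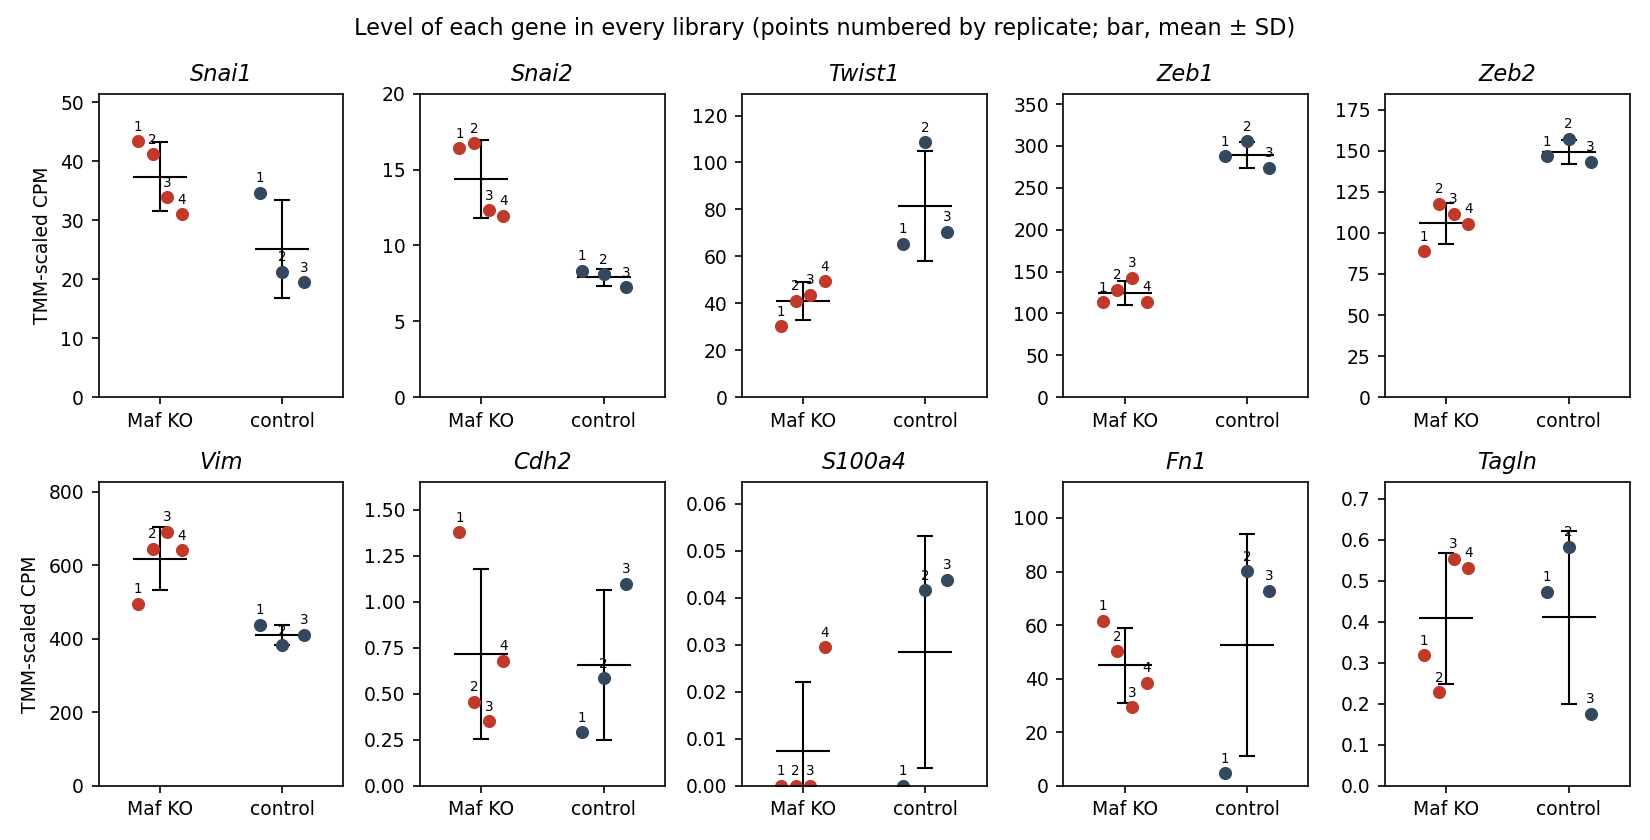
TMM-scaled CPM (vertical axes, from 0, a different range in each panel) of the 10 genes in each Maf KO library (left, red) and each control library (right, blue), numbered by replicate, with mean ± SD. Zeb1, Zeb2 and Twist1 lie lower in every KO library than in any control, Snai2 and Vim lie higher, and control 1 stands apart in Fn1 at 4.66 CPM.

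Snai2, also known as Slug, had the clearer rise of the SNAIL genes. The gene (ENSMUSG00000022676) lies on chromosome 16 from 14705852 to 14709385, plus strand, and like the others here it is given as the whole gene of GENCODE M21 on build GRCm38. It stood at 16.4, 16.7, 12.3 and 11.9 CPM in KO 1 to 4, against 8.34, 8.12 and 7.24 CPM in controls 1 to 3. Every KO library lay above every control. The log2 fold change was 0.86 (SE 0.159, edgeR adjusted p = 0.00237), or 1.81-fold, and 14.7% of all tested genes rose at least as far. Snai2 passed in all 20 alternative analyses, at log2 fold changes of at least 0.77.

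Snai1, the founding vertebrate SNAIL gene (ENSMUSG00000042821), lies on chromosome 2 from 167538195 to 167542814, plus strand. KO 1 to 4 held 43.4, 41.2, 33.9 and 31.0 CPM, against 34.7, 21.3 and 19.5 CPM in controls 1 to 3. Control 1 lay above KO 3 and KO 4, so the groups overlapped. The log2 fold change was 0.57 (SE 0.206), and the edgeR adjusted p of 0.049 was only just past the threshold. The call was lost without control 2 (adjusted p = 0.171), control 3 (0.161), KO 1 (0.104), KO 2 (0.104), KO 3 (0.0593) or KO 4 (0.0513), in lane 5 alone (0.176) and with DESeq2 size factors (0.055). Without control 1 it was kept, at a log2 fold change of 0.87 (adjusted p = 0.00409). Its direction was the same in all 20 alternatives, 9 of which called it. In lane 4 there was only KO 3 and control 3, so no test was made there.

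Immediate-early and stress genes, which tissue dissociation can induce, moved with the SNAIL genes. Of 16 such genes 8 rose and 0 fell, where 23.0% of all genes rose and 22.2% fell. Leaving out single libraries gave 6 to 13 rises, with 13 without KO 3. Their summed level was 13670 to 27560 CPM in KO libraries and 9346 to 12070 CPM in controls, and KO 1 and KO 2, the highest KO libraries in Snai1 and Snai2, were also the highest in this sum. The part of this difference in the SNAIL result was not tested.

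Zeb1 had the largest fall of the 10 genes. It lies on chromosome 18 from 5591860 to 5775467, plus strand (ENSMUSG00000024238). KO 1 to 4 held 113.3, 128.1, 142.7 and 113.9 CPM, against 287.5, 305.6 and 274.0 CPM in controls 1 to 3. The highest KO library was far below the lowest control. Its log2 fold change was -1.21 (SE 0.107, edgeR adjusted p = 4.85e-05), or 2.32-fold, and 733 of all tested genes, 4.73%, fell at least as far. It was called in all 20 alternatives, at log2 fold changes of -1.37 to -0.95. Exons of the antisense gene Gm10125, with 1665 reads in all, overlap those of Zeb1, which had 37385.

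Zeb2, its paralog, fell less. The gene (ENSMUSG00000026872) is on chromosome 2 from 44983632 to 45117395, minus strand. It had 88.7, 117.7, 111.7 and 105.7 CPM in KO 1 to 4, against 146.7, 157.3 and 143.2 CPM in controls 1 to 3, with no overlap. On the log2 scale the fold change was -0.49 (SE 0.106, edgeR adjusted p = 0.00522), or 1.41-fold. Zeb2 passed in 19 of 20 alternatives and did not pass when libraries were scaled by their totals (log2 fold change -0.23, adjusted p = 0.0668).

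Twist1 (ENSMUSG00000035799) lies on chromosome 12 from 33957671 to 33959829, plus strand. It stood at 30.2, 41.2, 43.6 and 49.5 CPM in KO 1 to 4, against 65.4, 108.6 and 70.4 CPM in controls 1 to 3. The groups did not overlap, and control 2 stood above the other controls. Its log2 fold change was -0.99 (SE 0.202, edgeR adjusted p = 0.00415), or 1.98-fold, and it was -0.73 without control 2 (adjusted p between 0.00476 and 0.0155 over the 7 analyses that each left out a library). It was called in all 20 alternatives.

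Markers of hepatic stellate cells, liver pericytes in which ZEB and TWIST genes are also active, fell as well. Of 11 tested stellate markers 9 fell, or 6 to 9 without single libraries, where 22.2% of all genes fell. The summed level of the 12 listed was 119.9 to 216.0 CPM in KO libraries and 305.1 to 363.4 CPM in controls. Most of that sum was Ecm1, averaging 84.25 CPM in the KO and 172.9 CPM in controls, and Hgf, averaging 65.38 and 127.6 CPM. No other marker on the list averaged more than 13.7 CPM in controls. Lrat, which defines these cells through retinoid storage, averaged 1.09 ± 0.346 CPM in the KO and 3.56 ± 0.646 CPM in controls (SD, n = 4 and 3). Zeb1 itself was at 124.5 ± 13.9 CPM in the KO and 289.0 ± 15.8 CPM in controls. The part of stellate RNA in the falls was not tested.

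Vimentin, the most abundant of the 10 transcripts, rose. Vim (ENSMUSG00000026728) lies on chromosome 2 from 13573927 to 13582826, plus strand. KO 1 to 4 held 494.9, 644.7, 691.0 and 640.1 CPM, against 438.1, 382.5 and 411.4 CPM in controls 1 to 3. The lowest KO library, KO 1, was still above every control. Its log2 fold change was 0.59 (SE 0.135, edgeR adjusted p = 0.00715), or 1.504-fold. It was called in 19 of 20 alternatives and lost its call with the replicate block (log2 fold change 0.56, adjusted p = 0.0501).

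KO and control libraries were fully separate in 5 of the 9 tested members, 2 of them higher and 3 lower in the KO. The same held for 50.3% of all tested genes, with 25.6% higher and 24.7% lower in the KO.

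**Figure D2:**
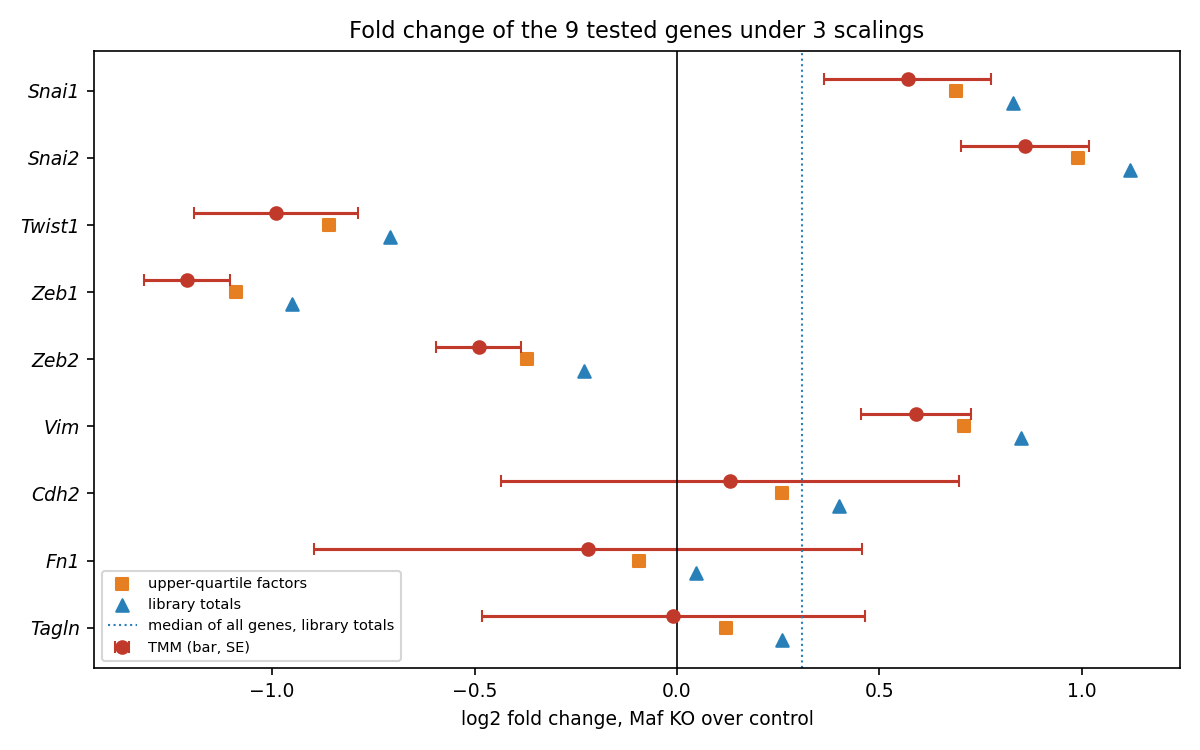
Log2 fold change of Maf KO over control (horizontal axis) for the 9 tested genes, with TMM scaling (circles; bars, SE), upper-quartile factors (squares) and library totals (triangles). Each gene shifts to the right by a similar step, from TMM to totals, while the median of all genes (dotted line) moves to 0.308 with totals.

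The scaling sets where 0 lies in this comparison. Over all genes the median log2 fold change came to 0.0433 under TMM, to 0.169 under upper-quartile factors and to 0.308 under library totals. The share of calls that were rises was 50.8% under TMM, 63.4% under upper-quartile factors and 76.3% under totals. Snai2 kept a rise under each of these scalings and Zeb1 and Twist1 a fall, while Zeb2 lost its call with totals. With totals 3 members rose and 2 fell, beside 41.1% and 12.7% of all genes, or 53.8% in either direction.

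Ratios of reads within a library do not depend on scaling, and they were chosen after the values were seen, so they are given without a test. For every 100 Zeb1 reads there were 14.5, 13.1, 8.63 and 10.5 Snai2 reads in KO 1 to 4, against 2.90, 2.66 and 2.64 in controls 1 to 3. The mean ratio was 4.27-fold higher in the KO. Snai1 reads per 100 Zeb1 reads were 23.8 to 38.3 in KO libraries and 6.96 to 12.1 in controls, so every KO library again lay above every control. Vim reads per 100 Zeb1 reads were 436.7 to 562.0 in KO libraries and 125.2 to 152.4 in controls.

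Within the families the balance differed. Zeb1 reads per 100 Zeb2 reads were 127.8, 108.9, 127.8 and 107.7 in KO 1 to 4, against 196.0, 194.3 and 191.3 in controls 1 to 3. The ZEB genes therefore did not fall in step. Snai1 reads per 100 Snai2 reads were 245.9 to 275.4 in KO libraries and 262.1 to 415.7 in controls, which overlapped, with control 1 far above the rest. Twist1 reads per 100 Zeb1 reads overlapped too, at 26.7 to 43.5 in KO libraries and 22.8 to 35.5 in controls.

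Set against the endothelial cadherin gene Cdh5, Zeb1 and Zeb2 parted. Zeb1 reads per 100 Cdh5 reads averaged 8.39 ± 0.815 (SD, n = 4), with a highest value of 9.48, in KO libraries and 14.1 to 15.6 in controls (n = 3), with no overlap. Zeb2 reads per 100 Cdh5 reads were 7.42, 7.64, 5.87 and 7.69 in KO 1 to 4, against 7.17, 8.05 and 7.70 in controls 1 to 3, and the groups overlapped. Twist1 also overlapped on this measure, at 2.29 to 3.60 in KO libraries and 3.20 to 5.56 in controls. Snai1, Snai2 and Vim lay higher in every KO library than in any control per Cdh5 read, with Snai1 at 1.78 to 3.63 in KO libraries and 1.05 to 1.69 in controls. Cdh5 itself did not pass (log2 fold change -0.38, edgeR adjusted p = 0.0935).

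**Figure D3:**
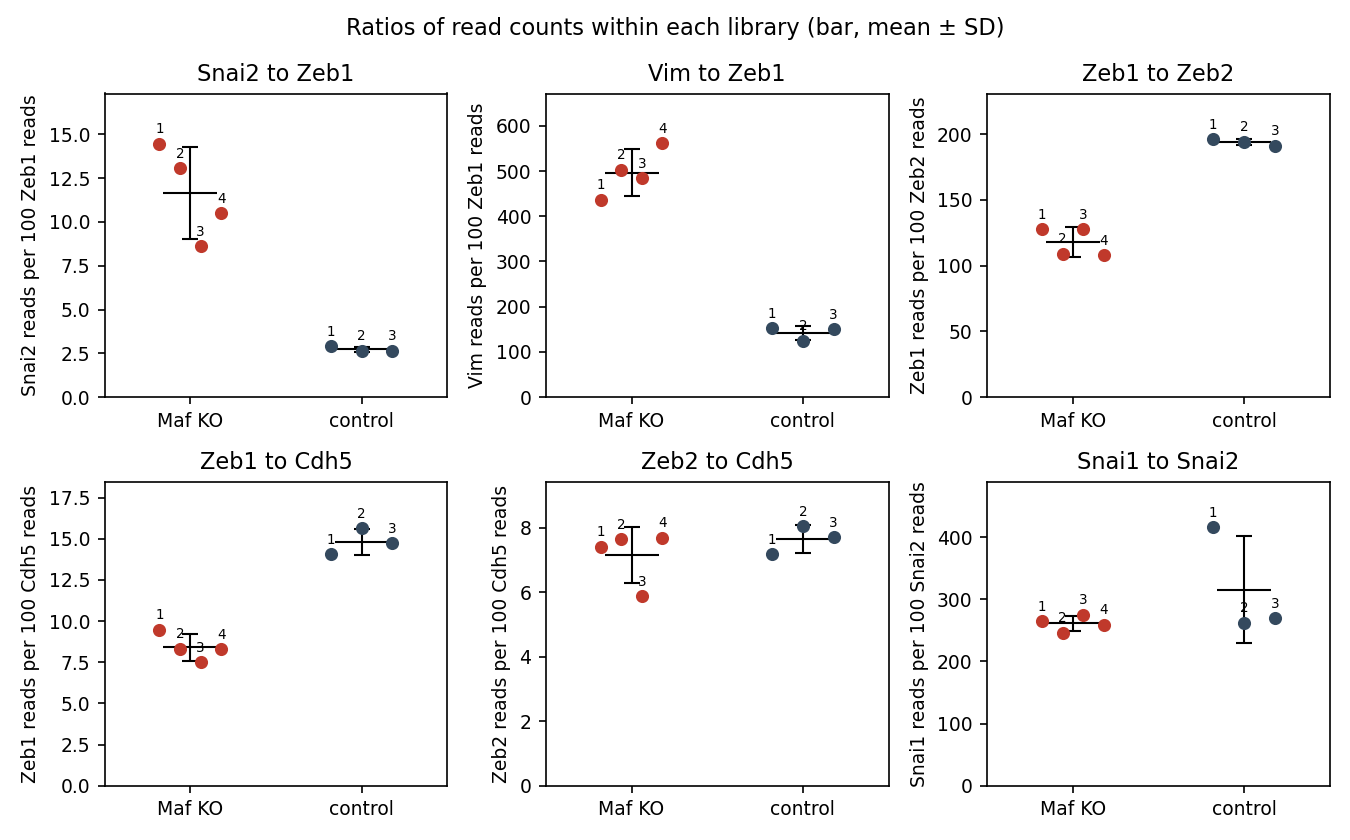
Reads of a gene per 100 reads of another in the same library (vertical axes, from 0), in Maf KO libraries (left, red) and controls (right, blue), numbered by replicate, with mean ± SD. Snai2 and Vim relative to Zeb1 are higher in every KO library, Zeb1 relative to Zeb2 and to Cdh5 is lower, and Zeb2 relative to Cdh5 and Snai1 relative to Snai2 overlap.

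The classical mesenchymal markers other than Vim were near the limit of detection or did not differ beyond their spread. Cdh2, on chromosome 18 from 16588877 to 16809246, minus strand (ENSMUSG00000024304), had 39, 14, 12 and 23 reads in KO 1 to 4, against 8, 14 and 25 reads in controls 1 to 3. That is 1.38, 0.456, 0.349 and 0.679 CPM in the KO and 0.291, 0.583 and 1.10 CPM in controls, with full overlap. With a log2 fold change of 0.13 (SE 0.566, edgeR adjusted p = 0.868), Cdh2 did not pass.

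Tagln was as low. It lies on chromosome 9 from 45929619 to 45936058, minus strand (ENSMUSG00000032085), and had 9, 7, 19 and 18 reads in KO 1 to 4, against 13, 14 and 4 reads in controls 1 to 3. Its levels were 0.228 to 0.553 CPM in KO libraries and 0.175 to 0.583 CPM in controls. Its log2 fold change was -0.0088 (SE 0.474, edgeR adjusted p = 0.99). Exons of Tagln overlap those of Pcsk7 on the other strand, which had 16083 reads over the 7 libraries, and the labels do not say which libraries were stranded, so some Tagln reads may be of Pcsk7.

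S100a4, on chromosome 3 from 90603771 to 90606045, plus strand (ENSMUSG00000001020), had 0, 0, 0 and 1 reads in KO 1 to 4, against 0, 1 and 1 reads in controls 1 to 3. All of these are under the limit of 3 counts, which is 0.0873 to 0.132 CPM, so S100a4 was not detectable at this depth in either group and no fold is given. Of 14 other genes of the S100 family 5 missed the filter, and S100a3 and S100a5 had 0 reads in all libraries. S100a6 averaged 1.25 CPM in the KO and 1.73 CPM in controls. S100a10, an annexin partner, averaged 116.0 ± 8.01 CPM in the KO and 106.9 ± 13.4 CPM in controls (SD, n = 4 and 3, edgeR adjusted p = 0.377). S100a11 rose 1.88-fold, to 26.7 ± 3.49 CPM in the KO, against 14.2 ± 1.46 CPM in controls (edgeR adjusted p = 0.000597). It was the only call among 9 tested S100 genes, and 2 rose with library totals.

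Fibronectin depended on a single control. Fn1, which encodes the matrix glycoprotein and lies on chromosome 1 from 71585520 to 71653200, minus strand (ENSMUSG00000026193), had 61.6, 50.3, 29.4 and 38.4 CPM in KO 1 to 4, against 4.66, 80.1 and 72.9 CPM in controls 1 to 3. Control 1 lay far below every other library, with 128 reads, and the other controls lay above every KO library. The log2 fold change was -0.22 (SE 0.677, edgeR adjusted p = 0.806). Without control 1 it was -0.77 (adjusted p = 0.0401), without control 2 it was 0.21 (0.855) and without control 3 it was 0.081 (0.944). Over the other alternatives it lay between -0.41 and 0.57.

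Markers of cells that also make fibronectin differed between the same libraries. Hepatocytes secrete the plasma form, and 8 of 13 hepatocyte markers rose, where 23.0% of all genes did. The rises numbered 3, 1 and 3 without control 1, 2 or 3 and 5 without KO 4. The summed hepatocyte level was 1551, 382.9, 483.7 and 742.8 CPM in KO 1 to 4 and 309.2 to 340.4 CPM in controls. The fibroblast sum was 6.08 to 49.1 CPM in KO libraries and 9.57, 31.0 and 161.8 CPM in controls 1 to 3. The Kupffer cell and macrophage sum was 44.9 to 159.8 CPM in KO libraries and 83.6, 202.6 and 125.5 CPM in controls 1 to 3. Control 1 was the lowest control in Fn1 and in each of these sums. In the hepatocyte sum the gap was small, at 309.2 CPM against 313.1 and 340.4 CPM in controls 2 and 3. KO 4 lay below control 1 in the fibroblast and macrophage sums, at 6.08 and 44.9 CPM, and held 38.4 CPM of Fn1. The part of hepatocytes, fibroblasts and macrophages in the Fn1 values was not tested. Of the other marker lists, smooth muscle (3 tested) had 1 fall, T, NK and B cells (2 tested) 1 fall, platelets (6 tested) 3 rises and 1 fall, and mesothelium, cholangiocytes, monocytes with neutrophils and dendritic cells, and erythroid cells had 0 calls by edgeR. At an unadjusted p under 0.05 these 4 lists held 3, 1, 0 and 3 genes in that order, and DESeq2 and limma-voom made no call in them save 1 rise of an erythroid gene by DESeq2. Single libraries decided some of these counts. By edgeR 4 mesothelial markers fell without control 1 and 2 without control 2, and 2 erythroid markers rose without control 1 or KO 2 and 3 without KO 3. Smooth muscle had 2 falls without KO 1, and the fall of T, NK and B cells and that of platelets were each lost without control 1, control 2 or KO 4.

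Compared per kilobase of the longest coding transcript, the order of levels was led by Vim in both groups, at 281.7 CPM per kb in the KO and 187.3 in controls. In the KO, Twist1, Snai1 and Zeb1 followed at 25.3, 23.1 and 21.5 CPM per kb, and the ranges of neighbours in this order overlapped. In controls Twist1 and Zeb1 were level at 50.1 and 49.8 CPM per kb, well above Zeb2 at 16.3 and Snai1 at 15.5, which overlapped each other. Snai2 stood at 7.10 CPM per kb in the KO and 3.91 in controls, and Fn1 at 5.40 and 6.32. Tagln, Cdh2 and S100a4 were last in both groups, with means under 0.26 CPM per kb. Snai1 thus lay below Zeb1 in every control library, while in the KO their ranges overlapped.

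The genes whose levels followed a member most closely over the 7 libraries were found by the root mean square difference of log2 CPM relative to the control mean. For Zeb1 they were Optn, Daglb and Epb41l2, at differences of 0.0569 to 0.0641. For Snai2 they were Hilpda, Dnaja1 and Erf, at 0.0854 to 0.0935. For Vim they were Nifk, Akip1 and Ppic, at 0.0781 to 0.0884. For Fn1 the nearest gene, Lrp1, was much less alike, at 0.697.

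Other genes of the transition moved in both directions. On 11 lists of its factors, partners and targets there were 165 genes, of which 132 were tested, and 24 rose (18.2%) and 30 fell (22.7%), beside 23.0% and 22.2% of all genes. The median log2 fold change was -0.10, against 0.0433 over all genes. With library totals 37 rose and 20 fell, where 41.1% of all genes rose and 12.7% fell.

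**Figure D4:**
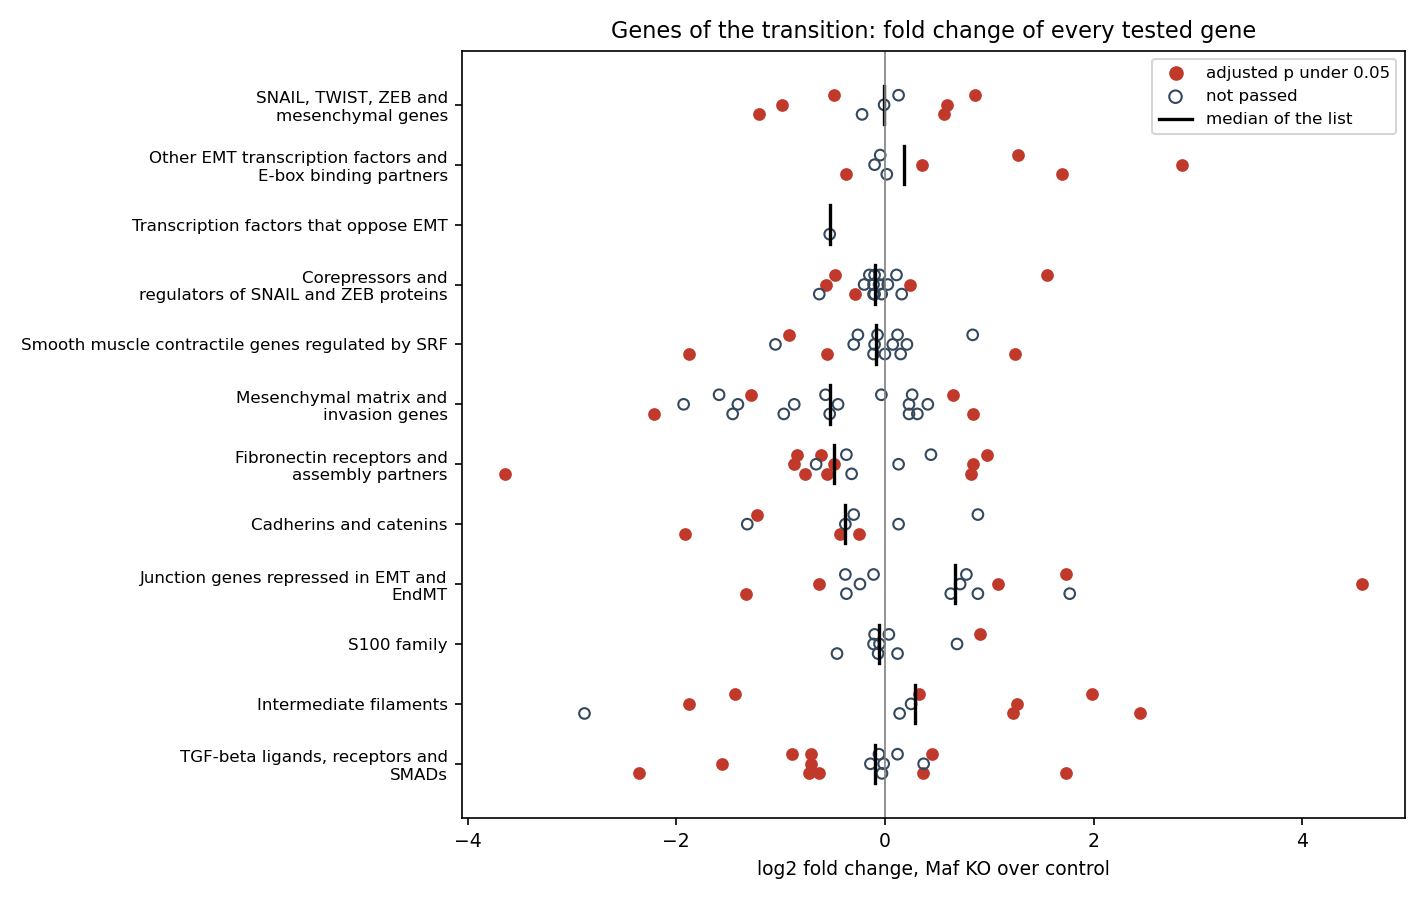
Log2 fold change of Maf KO over control (horizontal axis) for every tested gene of the members and of 11 lists (rows). Filled red points passed at an adjusted p under 0.05, open points did not, and black bars are list medians, which lie between -0.53 and 0.68.

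Among 15 further transcription factors of the transition and E-box binding partners, 8 were tested, and 4 rose and 1 fell. Leaving out any single KO library left 2 rises, and leaving out any library except KO 3 left 0 falls. Sox4 rose to 57.2 ± 11.1 CPM in the KO, against 23.7 ± 10.2 CPM in controls, and Foxc2, a forkhead factor of lymphatic endothelium, to 2.34 ± 0.472 CPM, against 0.727 ± 0.419 CPM in controls (SD, n = 4 and 3; edgeR adjusted p = 0.00424 and 0.00961). Snai3 and Twist2, the paralogs of the called factors, had at most 1 read per library. Of 18 corepressors and regulators of SNAIL and ZEB proteins 2 rose and 3 fell. The Polycomb methyltransferase gene Ezh2 rose 2.92-fold and the LIM gene Limd1 fell 1.49-fold, and rises numbered 1 without control 1, 2 or 3 or KO 2. The balance depended on the scaling, with 4 rises with upper-quartile factors and 6 rises against 1 fall with library totals.

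The contractile genes beside Tagln did not rise together. Of 21 genes 16 were tested, 1 rose and 3 fell, with 2 rises without control 3 and 5 falls without KO 3. Library totals gave 5 rises and 2 falls, and upper-quartile factors 2 of each. Acta2, smooth muscle actin, averaged 0.292 ± 0.267 CPM in the KO and 0.302 ± 0.205 CPM in controls and missed the filter. The actin crosslinker gene Flna rose 2.37-fold, and Vcl, vinculin, fell 1.89-fold. Tagln2, a paralog of Tagln that many cell types make, had 535.7 ± 75.3 CPM in the KO and 463.2 ± 61.0 CPM in controls (edgeR adjusted p = 0.268), and it passed with library totals (0.0179).

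On the list of intermediate filaments and a linker of them, of 10 genes tested beside Vim 5 rose and 2 fell, where 23.0% and 22.2% of all genes did. The rises were Nes, the nuclear lamin genes Lmna, Lmnb1 and Lmnb2, and Plec, whose product plectin links filaments, and the falls were Des and Synm. Plec and Synm are named after their values were seen, and the call of Plec was lost without control 1, control 3, KO 1 or KO 4 (edgeR adjusted p = 0.119, 0.0713, 0.0614 and 0.0688). Nes, nestin, rose 3.94-fold to 283.7 ± 34.0 CPM, against 72.1 ± 20.8 CPM in controls (edgeR adjusted p = 8.13e-05), and Lmnb1 rose 5.44-fold. Desmin, Des, a muscle and stellate filament, fell 3.68-fold to 0.995 ± 0.372 CPM, against 3.67 ± 0.130 CPM in controls (edgeR adjusted p = 0.000736).

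Of 15 tested fibronectin receptor and assembly genes 3 rose and 7 fell, with 1 rise without control 1 and 4 falls with library totals. The integrin gene Itga8 fell 12.5-fold to 20.0 ± 8.86 CPM, against 250.3 ± 5.88 CPM in controls, and its partner Itgb1 fell 1.79-fold. Itga5, the classical fibronectin receptor, had 234.8 ± 17.8 CPM in the KO and 214.5 ± 10.6 CPM in controls and did not pass (edgeR adjusted p = 0.291), though it did with upper-quartile factors (0.0474) and library totals (0.00786). Of 19 tested matrix and invasion genes 2 rose and 2 fell, with 0 rises without control 2 and 1 without KO 3 or KO 4. The membrane protease gene Mmp14 fell 4.63-fold.

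Among cadherins and catenins 4 of 9 tested fell and 0 rose, and 2 fell without control 1, 2 or 3, without KO 1 and with upper-quartile factors or library totals. Cdh13 and Cdh4, R-cadherin, which is the classical cadherin most like N-cadherin, fell 3.80- and 2.35-fold. Junction genes that SNAIL and ZEB proteins are known to repress in other cells showed 3 rises and 2 falls among 14. Ocln, occludin, was among the rises, at 2.67 ± 1.01 CPM in the KO (SD, n = 4) and 0.0728 to 0.132 CPM in controls, and Cldn5, the claudin of endothelial tight junctions, fell 2.52-fold. Falls numbered 1 without control 2, control 3 or KO 4 and 5 without KO 3.

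The TGF-beta pathway, the best known inducer of the transition, had 3 rises and 7 falls among 16 genes. The ligand gene Tgfb1 fell 1.85-fold and the receptor genes Tgfbr2 and Tgfbr1 fell 2.94- and 1.66-fold (edgeR adjusted p = 0.00172, 0.000718 and 0.00197). Rises numbered 1 without control 2, control 3 or KO 2, and 6 with library totals.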

How the data were processed

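Polyadenylated RNA of sorted mouse liver endothelial cells was sequenced in 4 Maf KO and 3 control libraries. The authors deposited unnormalized whole-number counts, one value per Ensembl gene and library. STAR 2.7.6a, FastQC 0.11.5 and build GRCm38 are named in the submitters' processing notes. How reads were counted, and with which annotation and strand setting, is not given in the sources used here. The labels' protocols name an unstranded and a stranded TruSeq kit. Of 52636 gene IDs 52403 matched a symbol. Coordinates and transcript lengths are from GENCODE M21, on the same build, and promoters from RefSeq, which held 5 of the 10 members.

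Counts were filtered with filterByExpr (minimum count 10, minimum total 15), scaled by TMM and tested in edgeR 4.0.16 (R 4.3.3) by the quasi-likelihood F-test with no covariate, adjusted over 15512 genes. TMM factors were 1.043 to 1.135 in KO libraries and 0.877 to 0.921 in controls. Each SE was taken as the size of the log2 fold change over the root of its F value. The 20 alternatives covered scaling, filters, DESeq2 1.42.0, limma-voom (limma 3.58.1), lane, replicate number, leaving out each library, and KO libraries 2 and 3 or 1 and 4 alone. The last pair, and the fit without the replicate block on the libraries used for it, were chosen after seeing the data. That fit without the block is the same analysis as leaving out KO 4, so the tallies of 20 count it under both names. The tests were tried on simulated data. Replicates were checked for duplicates, and every within-group pair differed beyond counting noise (chi-square over its degrees of freedom, 13.2 to 96.1). Limits of 3 counts cover counting error only.

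The members and lists were chosen with earlier results of these data known. The text names all members, up to 5 genes with the smallest p per list among those called, listed relatives and markers, and up to 3 nearest genes per member with a mean of at least 3 on the log2 CPM scale, compared after adding 0.1 CPM.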

Additional observations from a re-analysis of the deposited data

Results flagged for a closer look

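In S100a4, KO 4 stood apart from the other KO libraries: it held 1 read and they held none, which gives a gap to range ratio of 1.00 in Dixon's test. All of these values are under the limit of 3 counts, and chance marks about 1 in 20 groups. Maf, the other members and most list and nearest genes named with values were examined in the same way. None of these passed Dixon's critical value among the KO libraries. Egfl7, Emcn, Tie1, Stab1, Stab2, Fcgr2b, Ecm1, Hgf and S100a6 were not examined. Among them, Egfl7 held 1360 CPM in KO 3, against 1658, 1686 and 1692 CPM in KO 1, KO 2 and KO 4. Controls, at 3 libraries, were not tested.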

How the results depend on the processing

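Over the alternatives, 6 of the 9 tested members kept their direction in every one run. Snai2, Twist1 and Zeb1 were called in all 20, Zeb2 and Vim in 19 and Snai1 in 9. With library totals 6373 genes rose and 1976 fell, and 37 list genes rose, while 2234 genes rose with KO 2 and KO 3 alone against the controls, an analysis added after seeing the data. Leaving out single libraries gave 2379 to 3769 rises and 2584 to 3930 falls over all genes, 2 to 3 rises and 3 to 4 falls among members, and 17 to 21 rises and 23 to 37 falls among list genes.

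Members that did not pass changed sign. Cdh2 was -0.69 with KO 2 and KO 3 alone and -0.39 to 0.70 without single libraries. Fn1 was 0.048 with library totals, 0.57 with limma-voom, 0.25 with the replicate block, 0.20 in lane 5 alone and -0.77 to 0.21 without single libraries. Tagln was 0.12 with upper-quartile factors, 0.26 with library totals, 0.0066 with no filter, 0.040 with limma-voom, 0.0034 with lane as covariate, 0.036 with KO 1 and KO 4 alone and -0.36 to 0.30 without single libraries. The cause was not tested.

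The replicate block over controls 1 to 3 and KO 1 to 3 gave 2448 rises and 2607 falls, against 2720 and 2833 in the same 6 libraries without it. Same-numbered libraries' deviations correlated at -0.0235, 0.182 and 0.0398, and those of differently numbered libraries at -0.211 to 0.0891. Control 2 and KO 2, at 0.182, thus lay above every differently numbered pair. The numbers were not taken as pairs in the main fit. Vim was at 0.56 (adjusted p = 0.0501) and Snai1 was called under the block. Depth leaves S100a4 without a measured level and Cdh2 and Tagln with wide errors.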
